A study of Rattus norvegicus with 30 samples.

Results

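Livers of 5 rats fed tofu as their protein source were set against livers of 5 rats fed soy protein without added isoflavone. These are 10 of the 30 arrays of a diet study, taken by the diet named in the labels, with 1 array per liver. All animals were male Sprague-Dawley rats, obtained at 4 weeks of age, housed singly, kept for 5 days on a commercial diet and then fed a test diet for 14 days. In the tofu diet (T20) freeze-dried tofu supplied the whole 200 g/kg of protein, and in the soy protein diet (S) soy protein supplied it with no isoflavone added. Beside them stand SI, the soy protein diet with an isoflavone mixture added to the level of T20, and C, a diet with casein as its protein. T20 and S thus differ in the form in which soy was fed and in the isoflavone that came with it, to whose level SI was brought by supplement, and from T20 and S alone the contributions cannot be told apart.

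Tofu is made by coagulating soy milk and carries soy protein together with other bean constituents, whereas soy protein preparations are purified further. The liver adjusts enzymes of amino acid breakdown and of the methionine cycle to the amino acids it receives, and when an amino acid is short the transcription factor ATF4 raises genes such as *Asns*. It also makes hepcidin, the hormone that blocks iron export from cells, and it is the main site of cholesterol conversion to bile acids and of sterol export into bile.

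Values are the deposited intensities on a linear scale, tests ran on their log2, and differences are T20 minus S (5 livers each) with limma's SE, whose spread is estimated over all 30 arrays. Array medians were 229.6 to 250.7 in T20 livers and 227.1 to 237.7 in S livers. Correlations between arrays were 0.955 to 0.976 within T20, 0.959 to 0.976 within S and 0.947 to 0.973 between T20 and S. The ratio of the 3' to the 5' probe set of actin, a sign of RNA or labelling quality, was 1.91 and 1.94 on T20 arrays 1 and 2, against 2.27 to 2.83 on the other T20 arrays and 2.31 to 2.78 on the S arrays. The first principal component (24.0% of the variance of the 10 arrays) mixed the diets, and the second (18.6%) put all 5 T20 livers below 0 and all 5 S livers above it. All 11 measured hepatocyte markers lay above the level at which probe sets were tested, and none of them passed in T20 against S by limma, with 1 at an unadjusted p under 0.05.

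At an adjusted p under 0.05, 391 of 10699 genes passed (3.65%), of which 221 were higher (2.07%) and 170 lower (1.59%) in T20 livers than in S livers. Counted by probe set, 568 of 18625 passed (3.05%), 329 higher (1.77%) and 239 lower (1.28%). At an unadjusted p under 0.05 by limma stood 2879 of 18625 probe sets, beside which list counts at that level are to be read. Among the genes, 16 rose and 17 fell more than 2-fold, and the median difference over all genes was 0.02. Rose, higher, fell and lower describe T20 relative to S. By themselves they do not say which diet departed from casein. Groups did not overlap for 480 genes (4.49%), with all 5 T20 livers above all S livers for 265 (2.48%) and below them for 215 (2.01%). Of the 391 genes, 134 passed whichever T20 or S array was left out, and 77 passed also when the fit held only the T20 and S arrays, in which 79 genes passed in all. Without T20 arrays 1 and 2, those of lower actin ratio, 35 of the 78 named calls were lost. Among the genes described here these were *Sds*, *Tfrc*, *Slc11a2*, *Gnmt*, *Obp3*, *Rgn*, *Cyp2a2*, *Ghr*, *Cyp2c7*, *Gsta4*, *Aldh1a1*, *Tkt*, *Pgd*, *Pklr*, *Sc5d*, *Amacr*, *Slco1b2*, *Akr1c14*, *Angptl4*, *Mttp*, *Cdkn2c*, *Mcm7*, *Stmn1*, *Edem2*, *Hyou1*, *Dnajb11* and *Cdh1*. *Acaa2*, *Sts*, *Mgarp* and *Slc6a13*, named in the closing sections, lost their calls without those arrays too. The 28 named genes that passed under every alternative run included *Hamp*, *A2m*, *Mat2a*, *Asns*, *Aldh18a1*, *Nupr1*, *Inmt*, *Oat*, *Cbs* and *Hpd*. For the diets given beside them, 431 genes passed in T20 against SI (4.03%), 520 in T20 against C (4.86%) and 856 in S against C (8.0%), comparisons that share arrays with T20 against S. In bulk tissue, a lower level may mean fewer cells of a type or less RNA per cell, and these cannot be told apart.

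**Figure D1:**
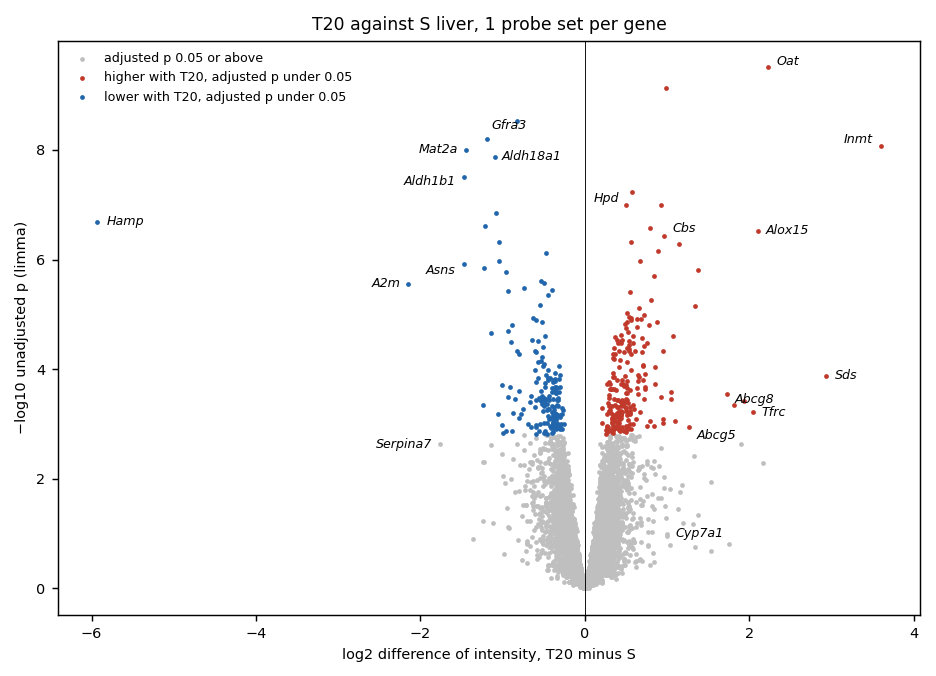
Each point is 1 gene (its brightest tested probe set), with the log2 difference T20 minus S on the horizontal axis and minus log10 of the unadjusted limma p on the vertical axis. Red points (221 genes, right) passed as higher and blue points (170 genes, left) as lower with T20, grey points did not pass, and Hamp stands alone at -5.94.

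Hepcidin, encoded by *Hamp*, fell furthest in T20 livers. Its intensities in T20 livers were 210.9, 240.2, 170.5, 255.2 and 179, against 28305, 6504, 25281, 18894 and 3855 in S livers. Every S liver was at least an order of magnitude above every T20 liver, and the T20 values lay near 167.6, the level below which probe sets were not tested. The log2 difference was -5.94 ± 0.87 (adjusted p = 0.000239), and because the T20 level is near the dim end of the arrays its size is uncertain. SI livers, with 652 in liver 1 and 9021 to 30542 in the other livers, lay far above T20 in 4 of 5 animals and C livers held 274 to 2630. The differences were -5.23 for T20 minus SI (adjusted p = 0.00114), -0.70 for SI minus S (95% interval -2.48 to 1.08) and 3.56 for S minus C (adjusted p = 0.0102). T20 minus C was -2.38 and did not pass (adjusted p = 0.111). These comparisons share arrays.

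The bases before the start of *Hamp* are shown because hepcidin transcription is known to answer to BMP signalling and to STAT3. In capitals are the letters GGCGCC of the BMP-responsive element, a motif added after the window had been read, and a match to the STAT letters TTCNNNGAA, which begin at positions -129 and -117 from the start. On either strand GGCGCC occurs in 11% and TTCNNNGAA in 8.87% of 33469 RefSeq promoter windows of 300 bases (build GRCr8). Counted by gene, in any of its windows, GGCGCC was held by 23.6% of 140 lower and 20.6% of 180 higher passing genes. For TTCNNNGAA these shares were 4.29% and 6.11%. A match describes the letters and shows no binding.
Hamp, chr1:95300272-95300521, minus strand: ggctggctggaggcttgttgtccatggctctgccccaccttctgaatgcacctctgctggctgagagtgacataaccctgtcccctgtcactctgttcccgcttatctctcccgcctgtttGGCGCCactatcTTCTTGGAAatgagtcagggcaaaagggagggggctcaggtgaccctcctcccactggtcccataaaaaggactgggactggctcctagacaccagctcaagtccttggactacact

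*Tfrc*, the transferrin receptor that brings iron into cells, passed as higher but rested on part of the animals. T20 livers held 16921, 13727, 11760, 4583 and 2534, against 2356, 1488, 1387, 1789 and 3045 in S livers. T20 livers 1 to 3 stood high, liver 4 was intermediate and liver 5 lay within the S range. The difference of 2.05 ± 0.53 (adjusted p = 0.0299) lost its call without any of T20 arrays 1, 2 or 3 or S arrays 2, 3 or 4, with adjusted p between 0.0113 and 0.102 over the arrays left out. Of 21 tested genes of iron handling 3 passed (14.3%, against 3.65% of all genes), *Hamp* lower and *Tfrc* and *Slc11a2* (the importer DMT1) higher. *Slc11a2*, at 0.28 ± 0.08 (adjusted p = 0.0426), lost its call without any of 7 arrays. Its other, dimmer probe set passed too, at 0.56 ± 0.11 (adjusted p = 0.0064).

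Of 29 acute phase genes, *A2m* alone passed (3.45%, against 3.65% of all genes). It encodes alpha-2-macroglobulin, a protease inhibitor that rises strongly in rat inflammation. Its intensities were 1185, 1578, 445, 1967 and 1001 in T20 livers, against 3405, 8916, 3572, 6340 and 4048 in S livers. No T20 liver reached the lowest S liver. The difference was -2.15 ± 0.37 (adjusted p = 0.00126), with -1.87 for T20 minus SI (adjusted p = 0.00568) and -0.28 for SI minus S (95% interval -1.03 to 0.47). Both soy diets stood above casein, by 1.62 for T20 (adjusted p = 0.0109) and 3.77 for S (adjusted p = 2.03e-07). The median of the acute phase list was -0.01, beside 0.02 over all genes, and 3 of its 29 members had an unadjusted p under 0.05.

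The methionine cycle turns methionine into S-adenosylmethionine, the cell's methyl donor, and transsulfuration passes its sulfur on to cysteine. *Mat2a*, the S-adenosylmethionine synthetase that predominates outside the adult hepatocyte, fell in T20 livers. It held 1331, 2144, 1522, 2005 and 1097 there, against 5531, 3946, 3588, 4481 and 4051 in S livers. Every T20 liver was below every S liver, with a difference of -1.44 ± 0.18 (adjusted p = 2.66e-05). T20 minus SI was -1.48 (adjusted p = 3.96e-05) and SI minus S was 0.03 (95% interval -0.34 to 0.40). Over casein, *Mat2a* stood 0.87 higher in T20 livers (adjusted p = 0.00563) and 2.31 higher in S livers (adjusted p = 5.55e-09).

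The 4 higher genes of this list were *Inmt*, *Cbs*, *Gnmt* and *Cdo1*. *Inmt*, which methylates indole amines and other small amines with S-adenosylmethionine, had 8705, 2004, 3112, 1227 and 3119 in T20 livers, against 315, 177.2, 396, 255 and 138 in S livers. Every T20 liver was well above every S liver, and the difference was 3.61 ± 0.45 (adjusted p = 2.66e-05). *Cbs*, cystathionine beta-synthase at the entry of transsulfuration, had 5144 to 7790 in T20 livers (median 6967) and 2469 to 4046 in S livers (median 3451). The groups did not overlap, and *Cbs* differed by 0.96 ± 0.15 (adjusted p = 0.00035). C livers held 4640 to 7591 of *Cbs*. *Gnmt*, the glycine methyltransferase that disposes of excess methyl groups, was 0.71 ± 0.15 higher (adjusted p = 0.0104), with T20 liver 5 just below S liver 3. *Cdo1*, cysteine dioxygenase, was 0.42 ± 0.09 higher (adjusted p = 0.0071). *Gnmt* and *Cdo1* lost their calls when only the T20 and S arrays were fitted (adjusted p = 0.0718 and 0.0658), and *Gnmt* also without T20 arrays 1 and 2 (adjusted p = 0.0701).

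Of 36 tested methionine cycle and transsulfuration genes, 4 rose and 1 fell (13.9% passing, against 3.65% of all genes). Their median difference was 0.09, and 17 had an unadjusted p under 0.05 by limma. *Cth*, the enzyme after *Cbs*, differed by -0.10 (95% interval -0.40 to 0.20) and the hepatocyte synthetase *Mat1a* by 0.49 ± 0.18 (adjusted p = 0.151); neither passed. *Inmt* and *Cbs* were also higher in T20 than in SI livers, by 3.17 (adjusted p = 0.00024) and 0.58 (adjusted p = 0.0244). SI minus S was 0.44 for *Inmt* (95% interval -0.47 to 1.35) and 0.39 for *Cbs* (95% interval 0.09 to 0.69). Neither passed after adjustment.

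Of 31 tested ATF4 targets, 3 fell and 0 rose in T20 livers (9.68% passing, against 3.65% of all genes). An unadjusted p under 0.05 by limma was found for 6. *Asns*, asparagine synthetase, held 144.1, 262, 229, 266 and 238 in T20 livers, against 452, 629, 662, 1065 and 448 in S livers. All T20 livers were below all S livers, T20 liver 1 lowest, and the difference was -1.47 ± 0.24 (adjusted p = 0.000706). *Aldh18a1*, which makes the precursor of proline and ornithine, held 185.2 to 272 in T20 livers and 404 to 608 in S livers, a difference of -1.09 ± 0.14 (adjusted p = 3.08e-05). *Nupr1*, a stress-induced nuclear protein, held 1102 to 1840.2 in T20 livers and 2766 to 3308 in S livers. The groups did not overlap for either gene, and *Nupr1* differed by -1.04 ± 0.17 (adjusted p = 0.000649). The serine synthesis enzyme *Psat1* differed by -0.73 without passing (adjusted p = 0.0731), and the list's median was -0.10. The T20 values of *Asns* and *Aldh18a1* lay near 167.6, the level below which probe sets were not tested. The sizes of their differences are therefore uncertain.

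All 3 were also lower in T20 than in SI livers, with differences of -1.14 for *Asns* (adjusted p = 0.00832), -1.04 for *Aldh18a1* (adjusted p = 0.000121) and -0.67 for *Nupr1* (adjusted p = 0.0227). SI minus S was -0.33 for *Asns* (95% interval -0.82 to 0.16), -0.05 for *Aldh18a1* (-0.33 to 0.23) and -0.37 for *Nupr1* (-0.72 to -0.03). None of these passed after adjustment. Against casein, *Asns* differed by 0.20 in T20 livers (adjusted p = 0.678) and by 1.67 in S livers (adjusted p = 5.29e-05). Mean log2 intensities of *Aldh18a1* were 7.79 on T20, 7.83 on C and 8.88 on S. Those of *Nupr1* were 10.48 on T20, 11.09 on C and 11.53 on S, so that casein stood between the soy diets.

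The *Nupr1* window is shown because it held the composite letters TGATGNAA, at which ATF4 and C/EBP proteins are known to pair on amino acid response genes. The match, in capitals, lies on the opposite strand and begins at position -55. These letters occur on either strand in 3.98% of the promoter windows. Among passing genes with a window, 4 of 140 lower genes (2.86%) and 2 of 180 higher genes (1.11%) held them in at least 1 of their windows. That count is by gene, whereas the share over all promoters is by window. The windows of *Asns* and *Mat2a* did not contain them, which speaks only of those bases.
Nupr1, chr1:190645902-190646151, minus strand: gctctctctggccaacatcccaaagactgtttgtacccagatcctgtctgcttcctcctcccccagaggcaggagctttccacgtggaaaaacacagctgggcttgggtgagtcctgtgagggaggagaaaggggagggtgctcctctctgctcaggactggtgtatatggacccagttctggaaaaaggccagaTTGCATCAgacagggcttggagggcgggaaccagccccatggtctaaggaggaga

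**Figure D2:**
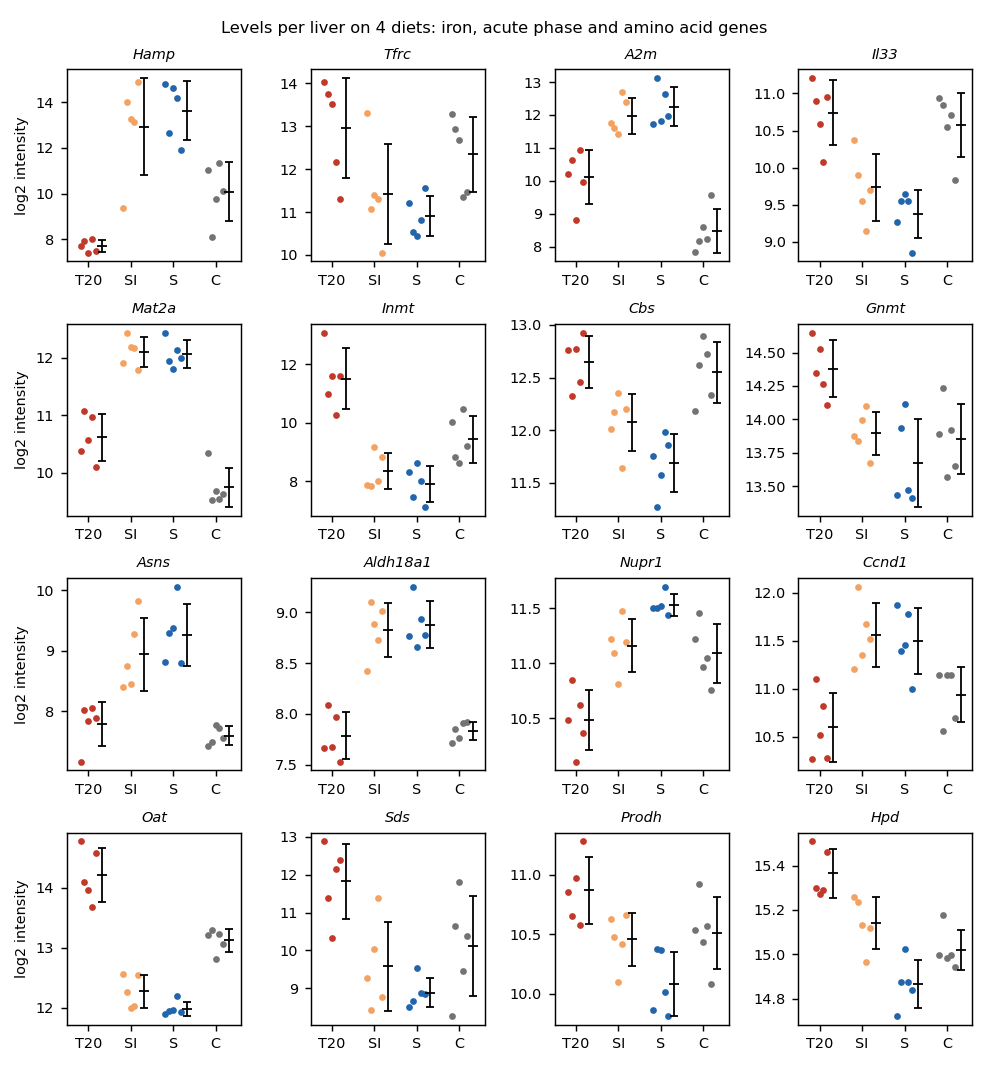
Log2 intensity per liver (coloured points, 5 per diet) with the mean and SD (black) for T20, SI, S and C, for genes of iron, acute phase and amino acid metabolism. In T20 livers Hamp, A2m, Mat2a, Asns, Aldh18a1 and Nupr1 lay below S, and Inmt, Cbs, Oat, Sds, Prodh and Hpd above S, with no overlap between those groups.

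Amino acid catabolism gave the longest set of higher genes, with 9 of 57 tested genes higher and 2 lower. Passing were 19.3%, against 3.65% of all genes, with a median of 0.21 and 26 at an unadjusted p under 0.05 by limma. *Oat*, the aminotransferase that breaks down ornithine, had 27845, 17468, 15931, 13089 and 24450.1 in T20 livers, against 3805, 3940, 3979, 4692 and 3920 in S livers. The S livers were tightly grouped, S liver 4 highest, and every T20 liver stood above them. *Oat* had the smallest p of all genes, with a difference of 2.23 ± 0.23 (adjusted p = 5.69e-06), and T20 minus SI was 1.93 (adjusted p = 3.96e-05). *Oat* was also above C in T20 livers, with a difference of 1.09 (adjusted p = 0.00771), and below C in S livers, with a difference of -1.14 (adjusted p = 0.00248).

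*Sds*, serine dehydratase, which releases pyruvate from serine, had 7529, 2655, 1289, 4513 and 5368 in T20 livers, against 365, 405, 740.0, 469 and 462 in S livers. The groups did not overlap, although the T20 livers were widely spread. The difference was 2.94 ± 0.66 (adjusted p = 0.0138), which lost its call without T20 arrays 1 and 2 (adjusted p = 0.069), and T20 minus SI, at 2.24, did not pass (adjusted p = 0.055). *Prodh*, proline dehydrogenase, was 0.78 ± 0.15 higher (adjusted p = 0.00403) with only the T20 and S arrays at an adjusted p of 0.0525. *Gls2*, liver glutaminase, was 0.61 ± 0.13 higher (adjusted p = 0.0071), and *Hpd*, of tyrosine breakdown, 0.50 ± 0.07 higher (adjusted p = 0.000146). For *Prodh*, *Gls2* and *Hpd* all 5 T20 livers lay above all 5 S livers.

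Mean levels in SI livers stood between those of T20 and S for several of these genes. The genes were chosen by T20 against S, and SI minus S uses the same S arrays. That choice by itself favours an SI minus S difference in the direction of T20, here and for the other genes described. SI minus S was 0.37 for *Prodh* (95% interval 0.06 to 0.68), 0.37 for *Gls2* (0.11 to 0.63), 0.27 for *Hpd* (0.13 to 0.42) and 0.39 for the urea cycle enzyme *Ass1* (0.15 to 0.62), and none passed after adjustment. Across all probe sets SI against S gave 0 passing by limma, with 664 at an unadjusted p under 0.05 and a smallest adjusted p of 0.446. *Ass1* passed in T20 against S (0.50 ± 0.12, adjusted p = 0.0163), a call lost without S array 1 (adjusted p = 0.054), and T20 minus SI was 0.11 (adjusted p = 0.658). The 2 lower genes were *Sdsl*, a homologue of *Sds*, at -0.49 ± 0.10 (adjusted p = 0.00547, and 0.0805 with only the T20 and S arrays), and *Bckdk*, the kinase that inhibits branched-chain ketoacid breakdown, at -0.59 ± 0.15 (adjusted p = 0.023). The other 3 higher genes were *Asl*, *Mccc2* and *Dpys*, at 0.34 to 0.43, which with *Bckdk* are named after their values were seen.

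**Figure D3:**
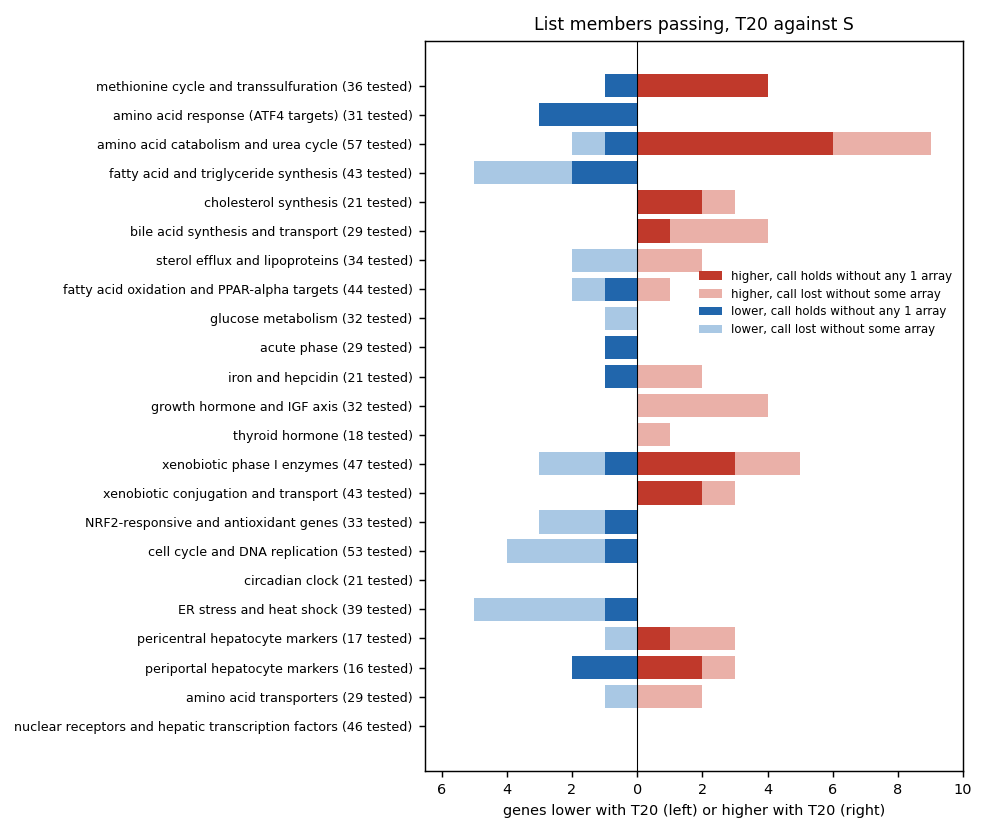
Number of passing genes of each functional list, lower with T20 to the left and higher with T20 to the right, with the number of tested members in brackets. Dark bars count calls that held whichever single T20 or S array was left out and pale bars those that did not, and amino acid catabolism had the longest bar (9 higher, 6 of them dark).

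Of 53 tested cell cycle and replication genes 4 fell and 0 rose (7.55% passing, against 3.65% of all genes), and only the call of *Ccnd1* held whichever array was left out. Of the 53, 47 had a difference below 0 and 23 an unadjusted p under 0.05 by limma. Their median was -0.36, beside 0.02 over all genes. *Ccnd1*, cyclin D1 of the G1 phase, held 1234, 2191, 1470, 1802 and 1245 in T20 livers, against 3764, 2684, 2802, 3505 and 2047 in S livers. The ranges overlapped through T20 liver 2 and S liver 5, and the difference was -0.90 ± 0.18 (adjusted p = 0.00597, and 0.0658 with only the T20 and S arrays). *Stmn1*, *Mcm7* and *Cdkn2c* passed too, at -0.60, -0.44 and -0.44, and each lost its call without any of 4 or more arrays. Under the other scalings the median was -0.39 to -0.37.

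Of 43 tested genes of fatty acid and triglyceride synthesis 5 fell and 0 rose (11.6% passing, against 3.65% of all genes), with a median of -0.01. The calls of 2 of them, *Agpat2* and *Agpat3*, held whichever array was left out. *Agpat2*, an acyltransferase on the way to triglyceride, had 3088 to 4164 in T20 livers (median 3485) and 4672 to 6003 in S livers (median 5006). The groups did not overlap, with a difference of -0.51 ± 0.11 (adjusted p = 0.0104, and 0.0521 with only the T20 and S arrays). *Agpat3* passed at -0.74 ± 0.13 (adjusted p = 0.00145), but its other 3 probe sets were at -0.10 to -0.26 and did not pass, and the mean over its probe sets did not either (adjusted p = 0.0735). The other 3 lower genes were *Pklr* (liver pyruvate kinase), *Tkt* and *Pgd*.

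*Tkt*, *Pgd* and *Taldo1* act in the pentose phosphate pathway. They were also the 3 passing members, all lower, of 33 NRF2-responsive and antioxidant genes (9.09%, against 3.65% of all genes). *Taldo1*, transaldolase, held 4896, 4220, 5159, 5058 and 5059 in T20 livers, against 5884, 7044, 7654, 6872 and 6491 in S livers. No T20 liver reached an S liver, and the difference was -0.47 ± 0.07 (adjusted p = 0.00053). *Tkt* (-0.55 ± 0.13, adjusted p = 0.023) and *Pgd* (-0.46 ± 0.12, adjusted p = 0.0292) did not overlap between the diets but lost their calls without any of 4 and 5 arrays and when array medians and spreads were made equal. *Pklr*, at -0.50 ± 0.14 (adjusted p = 0.0486), lost its call without any of 8 arrays.

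The central lipogenic genes did not pass between the soy diets. *Fasn*, fatty acid synthase, held 3871, 4057, 4509, 2316 and 2220 in T20 livers, against 8363, 3945, 1926, 4142 and 3503 in S livers. These ranges overlapped widely, and the difference was -0.27 (95% interval -1.22 to 0.69). *Me1*, which supplies NADPH, differed by 0.09 (95% interval -0.29 to 0.47) and *Srebf1*, a transcription factor of lipogenesis, by 0.16 (95% interval -0.59 to 0.90). *Scd*, the stearoyl-CoA desaturase, differed by -0.88 (95% interval -1.46 to -0.30, adjusted p = 0.093) and among all alternatives run passed only without T20 array 4 (adjusted p = 0.0446). *Acaca*, acetyl-CoA carboxylase, had all T20 livers (1736 to 2669) below all S livers (2738 to 3988), yet its difference of -0.51 did not pass (adjusted p = 0.142). Both diets were below casein. For *Fasn* the differences were -1.99 for T20 (adjusted p = 0.0144) and -1.72 for S (adjusted p = 0.0212), and for *Me1* they were -1.76 for T20 (adjusted p = 3.09e-06) and -1.85 for S (adjusted p = 2.5e-07).

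*Abcg5* and *Abcg8* encode the paired subunits of the transporter that exports sterols into bile. *Abcg8* had 846, 301, 824, 850.0 and 1232 in T20 livers, against 194, 185, 502, 240.1 and 128 in S livers. T20 liver 2 was far below the other T20 livers and inside the S range. The difference was 1.73 ± 0.42 (adjusted p = 0.0203) and lost its call without any of T20 arrays 1 and 5 and S arrays 2 and 5, with adjusted p up to 0.0587. *Abcg5* had 1406, 818, 1707, 1726 and 2289 in T20 livers, against 653, 515, 1333, 565 and 381 in S livers. Again T20 liver 2 was lowest of its group and S liver 3 highest of its own. The difference of 1.27 ± 0.35 (adjusted p = 0.0424) held without T20 array 2 or S array 3 and lost its call without any of the other 8 arrays (adjusted p up to 0.116). SI minus S was 0.10 for *Abcg8* (95% interval -0.75 to 0.95) and 0.06 for *Abcg5* (95% interval -0.66 to 0.77).

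The bases between the starts of this pair are shown because the genes run in opposite directions from starts only 205 bases apart, so that 295 bases of their promoter windows coincide. They contained the NRF2-type letters TGACNNNGC once, in capitals, which occur on either strand in 12.1% of promoter windows, and none of the other motifs searched.
Abcg5 and Abcg8, chr6:15717731-15717935, plus strand, read towards Abcg5: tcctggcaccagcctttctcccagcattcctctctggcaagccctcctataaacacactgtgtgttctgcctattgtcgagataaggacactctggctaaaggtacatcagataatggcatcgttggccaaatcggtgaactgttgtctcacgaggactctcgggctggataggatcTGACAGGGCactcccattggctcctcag

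Of 34 genes of sterol efflux and lipoproteins 2 rose, which were this pair, and 2 fell (11.8% passing, against 3.65% of all genes). The lower genes were *Angptl4*, an inhibitor of lipoprotein lipase, at -0.87 ± 0.23 (adjusted p = 0.0302), and *Mttp*, a lipid transfer protein of lipoprotein assembly, at -0.30 ± 0.08 (adjusted p = 0.0442), and each lost its call without any of 5 or more arrays. Of 21 cholesterol synthesis genes 3 rose and 0 fell (14.3% passing), with a median of 0.10. *Tm7sf2*, a sterol reductase, had 10520, 5143, 8141, 5392 and 8269 in T20 livers, against 2734, 3080, 4301, 3394 and 3868 in S livers. The groups were apart, and *Tm7sf2* differed by 1.07 ± 0.21 (adjusted p = 0.00547). *Ebp*, a sterol isomerase, was 0.67 ± 0.11 higher (adjusted p = 0.000649), and *Sc5d* 0.49 ± 0.14 higher (adjusted p = 0.0447, lost without any of 7 arrays). *Sqle*, an earlier enzyme of the pathway, differed by 0.28 without passing (95% interval -0.17 to 0.73).

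Of 29 genes of bile acid synthesis and transport 4 rose and 0 fell (13.8% passing, against 3.65% of all genes), with a median of 0.20. *Baat*, which joins bile acids to glycine or taurine, had 19467 to 25299 in T20 livers (median 22484) and 13307 to 16186 in S livers (median 15403). All T20 livers were above all S livers, with a difference of 0.55 ± 0.10 (adjusted p = 0.00158). *Amacr*, *Slco1b2* and *Akr1c14* were the other 3, at 0.42 to 0.52, and each lost its call without any of 6 or more arrays. *Cyp7a1*, which limits the classic route from cholesterol to bile acids, had 9903, 1994, 1395, 521 and 2622 in T20 livers, against 2451, 451, 348, 1791 and 1709 in S livers. Both groups spread widely and overlapped, and the difference was 1.00 (95% interval -0.21 to 2.20, adjusted p = 0.443).

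**Figure D4:**
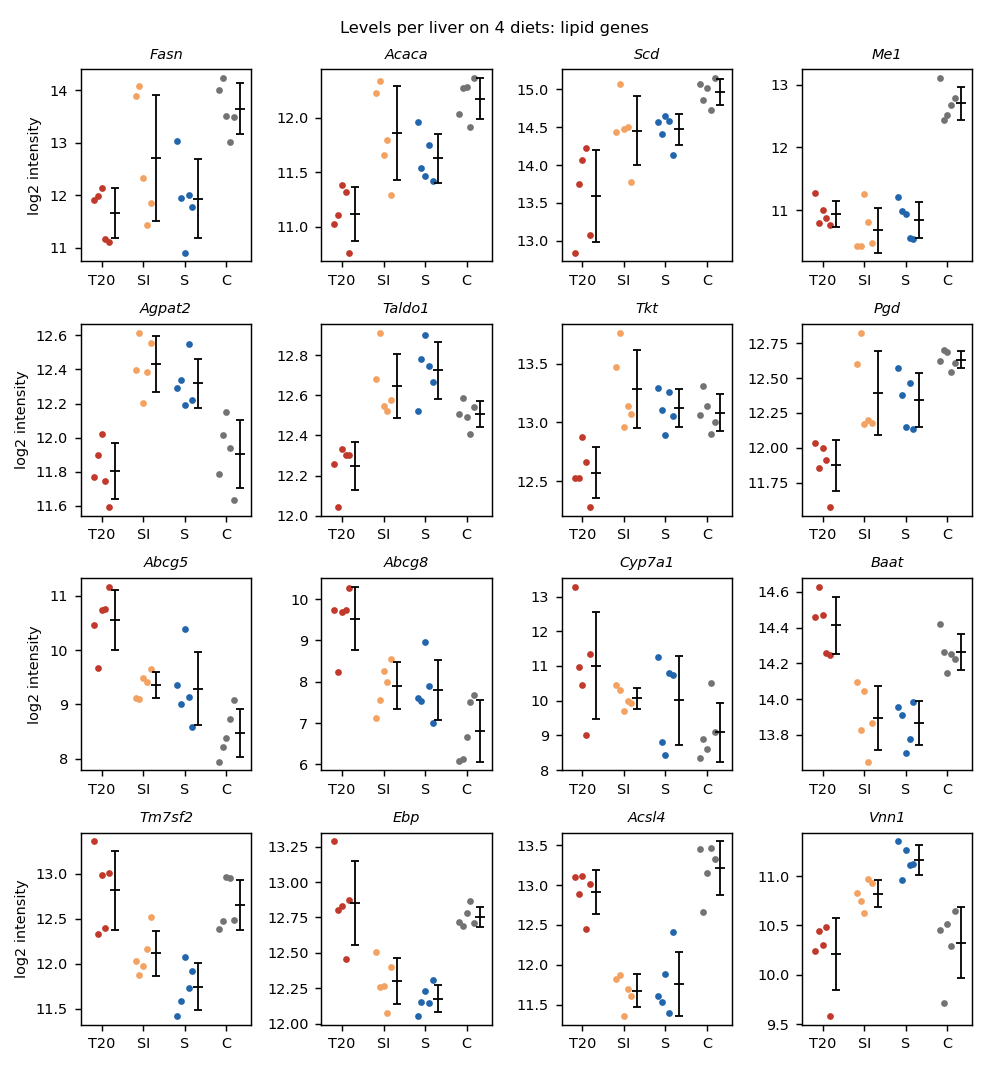
Log2 intensity per liver (coloured points, 5 per diet) with the mean and SD (black) for T20, SI, S and C, for lipid genes. T20 and S overlapped for Fasn, Me1 and Cyp7a1, T20 lay below S without overlap for Agpat2, Taldo1, Tkt, Pgd and Vnn1, and above S without overlap for Baat, Tm7sf2, Ebp and Acsl4.

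Fatty acid oxidation and PPAR-alpha targets did not move together, with 1 of 44 higher, 2 lower and a median of -0.02. Passing were 6.82%, against 3.65% of all genes. *Vnn1*, pantetheinase, had 1209.7, 1392, 1263, 1428 and 766 in T20 livers, against 2610, 1998, 2459, 2212 and 2232 in S livers. T20 liver 5 was lowest and no T20 liver reached the S range, with a difference of -0.95 ± 0.16 (adjusted p = 0.000855). *Acsl4*, the acyl-CoA ligase that favours arachidonic acid, rose by 1.15 ± 0.18 (adjusted p = 0.000412), with 5604 to 8827 in T20 livers (median 8295) and 2703 to 5428 in S livers (median 3116). *Alox15*, which oxygenates arachidonic acid, rose by 2.10 ± 0.31 (adjusted p = 0.000295), with 2185, 744, 2568, 1526 and 4631 in T20 livers, against 577, 444, 403, 348 and 559 in S livers. Neither of these overlapped between T20 and S. C livers held 6457 to 11296 of *Acsl4* and 520 to 1244 of *Alox15*. T20 minus SI was 1.24 for *Acsl4* (adjusted p = 0.000266) and 1.89 for *Alox15* (adjusted p = 0.00114).

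Of 47 phase I enzymes 5 rose and 3 fell (17.0% passing, against 3.65% of all genes). *Cyp2d4* (0.79 ± 0.12, adjusted p = 0.000277) and *Cyp4f4* (0.72 ± 0.15, adjusted p = 0.00624) stood above S in all 5 T20 livers, and *Cyp2c7*, a growth hormone-dependent P450, was 0.49 ± 0.11 higher with overlapping groups (adjusted p = 0.0138). *Cyp4f4* and *Cyp2c7* did not pass with only the T20 and S arrays (adjusted p = 0.071 and 0.0909), and *Cyp2c7* did not without T20 arrays 1 and 2 (adjusted p = 0.0601). *Aldh1b1*, a mitochondrial aldehyde dehydrogenase, fell by 1.47 on the log2 scale, with 1178, 1726, 1146, 2006 and 1275 in T20 livers, against 4076, 4482, 3409, 3290.3 and 4783 in S livers. These groups were far apart (SE 0.19, adjusted p = 5.87e-05), and T20 minus SI was -1.64 (adjusted p = 3.96e-05). C livers held 1386 to 1979.5 of *Aldh1b1*. Probe sets of P450, glutathione transferase and UGT genes may also read close relatives within their families.

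Of 43 genes of conjugation and transport 3 rose and 0 fell (6.98% passing, against 3.65% of all genes). *Papss2*, which makes the activated sulfate used by sulfotransferases, had 6889 to 9931 in T20 livers (median 8612) and 3888 to 5276 in S livers (median 4881). It did not overlap and differed by 0.89 ± 0.14 (adjusted p = 0.000529). *Gstm7*, a glutathione transferase, was 0.65 ± 0.15 higher with overlap (adjusted p = 0.0136, and 0.097 with only the T20 and S arrays). *Gsta4* was the third, at 0.60 ± 0.15 (adjusted p = 0.0282), and lost its call without any of 6 arrays.

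Among 32 genes of the growth hormone and IGF axis 4 rose and 0 fell (12.5% passing, against 3.65% of all genes). Each of the 4, however, lost its call without any of at least 3 arrays. *Obp3*, an alpha-2u globulin of male rat liver, had 34539, 27988, 35789, 20098 and 23445 in T20 livers, against 5720, 15503, 2422, 7720 and 12075 in S livers. No S liver reached a T20 liver, yet the difference of 1.93 ± 0.48 (adjusted p = 0.0233) did not pass without T20 array 1 or 3 or S array 1 or 3. *Rgn*, *Cyp2a2* and the receptor *Ghr* were higher by 0.43 to 0.64. *Igf1* itself differed by 0.08 (95% interval -0.06 to 0.21). *Serpina7*, a carrier of thyroid hormone in plasma, had 288, 449, 150.4, 611 and 168 in T20 livers, against 1273, 1292, 1277, 477 and 881 in S livers. Only T20 liver 4 reached the S range, and the difference of -1.76 ± 0.53 did not pass (adjusted p = 0.0642), though it did without T20 array 4 (adjusted p = 0.0336) and with a floor of 64.

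Protein folding genes included 5 lower and 0 higher of 39 (12.8% passing, against 3.65% of all genes). *Hspd1*, the mitochondrial chaperonin, fell by 0.38 on the log2 scale (SE 0.09, adjusted p = 0.0146) without overlap, a call lost with only the T20 and S arrays (adjusted p = 0.0643) and with equal medians and spreads (adjusted p = 0.296). *Creld2*, *Hyou1*, *Dnajb11* and *Edem2*, of the endoplasmic reticulum, were lower by -0.78 to -0.36, and each lost its call without at least 1 array. The clock list gave 0 of 21 passing by limma with 2 at an unadjusted p under 0.05, and nuclear receptors and liver transcription factors 0 of 46 with 6 at that level. Over all probe sets, 2879 of 18625 were at that level.

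Markers of both liver zones passed in both directions. Of the pericentral markers 13 had a difference above 0 and 4 below, with a median of 0.14. Of the periportal markers 8 were above 0 and 8 below, with a median of -0.03. An unadjusted p under 0.05 by limma was found for 8 pericentral and 7 periportal markers. Of 17 pericentral markers 3 were higher (*Oat*, *Rgn*, *Slco1b2*) and 1 lower (*Aldh1a1*), and of 16 periportal markers 3 were higher (*Sds*, *Gls2*, *Ass1*) and 2 lower (*Sdsl*, *Cdh1*). Passing were 23.5% of the pericentral and 31.2% of the periportal markers, against 3.65% of all genes. *Oat*, *Sds*, *Gls2*, *Ass1*, *Sdsl*, *Rgn* and *Slco1b2* were also counted in lists described above. *Cdh1*, E-cadherin, fell by 0.60 on the log2 scale (SE 0.11, adjusted p = 0.00369), with 3860 to 5681 in T20 livers (median 5215) and 6585 to 7827 in S livers (median 7557). These did not overlap, and without T20 arrays 1 and 2 the adjusted p was 0.0548. Of 29 amino acid transporters 2 were higher and 1 lower (10.3% passing), and each of these calls was lost without at least 1 array.

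Several genes of large change belonged to none of the lists. *Gfra3*, a receptor subunit for the neurotrophic factor artemin, had 332 to 579.7 in T20 livers (median 431) and 844 to 1212 in S livers (median 994). It differed by -1.19 ± 0.15 (adjusted p = 2.37e-05) without overlap, and C livers held 374 to 458. *Aqp7*, a glycerol channel, differed by -1.08 ± 0.15 (adjusted p = 0.000186), *Prss8*, the protease prostasin, by -1.05 ± 0.16 (adjusted p = 0.000408), *Aoc1*, diamine oxidase, by -1.14 ± 0.22 (adjusted p = 0.00514) and *Ugt2b34l1*, a UDP-glucuronosyltransferase, by -1.22 ± 0.20 (adjusted p = 0.000806). *Aoc1* did not pass with only the T20 and S arrays (adjusted p = 0.0672). *Tmem79* differed by -1.21 ± 0.18, with a T20 mean below the level at which probe sets were tested. Near that level too were *Aoc1*, at 153.0 to 209.7 in T20 livers, and *Aqp7*, at 150.6 to 250.2. *Mtmr7*, a phosphoinositide phosphatase, rose by 1.34 ± 0.24 (adjusted p = 0.00259), with 542 to 894 in T20 livers and 193 to 436 in S livers. C livers held 504 to 1107.5 of it. For all of these, every T20 liver lay on one side of every S liver.

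*Il33*, a cytokine stored in nuclei of barrier and stromal cells, had 2367, 1902, 1534, 1075 and 1979 in T20 livers, against 613, 749, 796, 750 and 462 in S livers. All T20 livers were higher, by 1.37 ± 0.23 (adjusted p = 0.000841), and T20 minus SI was 1.01 (adjusted p = 0.0126). C livers held 913 to 1963 of *Il33*. Beside *Il33* and *Alox15*, all 14 Kupffer cell and macrophage markers had a difference above 0, with a median of 0.22, beside 0.02 over all genes. Their summed intensities were 39352 to 53492 in T20 livers and 33592 to 46267 in S livers, ranges that overlapped. Of these 14 only *Cd14* passed (7.14%, against 3.65% of all genes), at 0.75 ± 0.21 (adjusted p = 0.042), and its call was lost when single arrays were left out. An unadjusted p under 0.05 by limma was found for 3 of the 14. Blood markers had a median of 0.30 over 6 genes with 0 passing, by limma, and 2 at an unadjusted p under 0.05, and endothelial markers 0.11 over 14 with 0 passing and 2 at that level. Of 16 stellate cell and fibroblast markers 7 had a difference above 0 and 9 below, with a median of -0.04. The pericyte gene *Rgs5* alone passed (6.25%, against 3.65% of all genes), at 0.68 ± 0.13 (adjusted p = 0.00358), while *Col1a1* and *Col1a2* were at -0.57 and -0.34 without passing. Of 3 tested exocrine pancreas markers *Cela1* passed (33.3%, against 3.65% of all genes), at 0.85 ± 0.19 (adjusted p = 0.0109), a call lost without T20 arrays 1 and 2. The others, *Cpb1* and *Cel*, were at -0.11 and 0.02 without passing. These genes are named after their values were seen, and 10 of 13 measured pancreas markers lay below the tested level. The part of these cell types in the differences was not tested.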

How the data were processed

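Liver RNA was made into biotinylated cRNA for 1-colour Affymetrix arrays, per the labels' protocols. The deposited values are a normalized intensity for every probe set, for which the labels give SuperNORM parameters; the sources used here do not say to what level they were scaled. The labels call the 5 arrays of a diet biological replicates and house rats singly. A p-value table of the authors was not used here.

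Of 31099 probe sets 57 controls were left out, and intensities below 16 were set to 16 before log2 was taken. Probe sets with a mean above the 40th percentile (7.39, intensity 167.6) were tested, 18625 for 10699 genes; a gene took its brightest tested probe set. Symbols came from the platform annotation (1 symbol for 20832 probe sets, several for 436, none for 9831, the last 2 classes unnamed). limma 3.58.1 (R 4.3.3) fitted the 6 diet means over the 30 arrays (24 residual degrees of freedom, variance trend, two-sided), with Benjamini-Hochberg adjustment over all probe sets of a comparison at 0.05. The script was tested on simulated data. Members and lists were chosen with earlier results of these data known. Named genes were the 15 most higher and 15 most lower passing genes, up to 5 passing genes of smallest p per functional list and a fixed set of 30, not all of which are reported here. The 23 functional and 10 cell type lists are given by counts. Those not described above include glucose metabolism (1 of 32 passing, 3.12%) and thyroid hormone (1 of 18, 5.56%), against 3.65% of all genes. By limma 0 of 6 bile duct, 0 of 9 lymphocyte and neutrophil, 0 of 6 adipose and 0 of 5 intestine and kidney markers passed. At an unadjusted p under 0.05 stood 2, 0, 1 and 0 of them. Same-numbered T20 and S arrays correlated at 0.23, 0.21, 0.01, 0.04 and -0.08 in their deviations from the group means, so the numbers were not taken as pairs. Alternatives were other scalings, filters, floors, no trend, array weights, fewer arrays, a stricter threshold, the mean of a gene's probe sets, the replicate number as a block and each array left out. Promoter windows (250 bases before to 50 after a start) are RefSeq's, build GRCr8, and held 73 of 98 named genes. They were searched on both strands for TGATGNAA, TTCNNNGAA, TGACNNNGC, CACGTG, TTATGNAA, TCACNCCAC and GGCGCC and for the nuclear receptor motif DR1. Python 3.11.15 and matplotlib 3.10.9 made the figures. The number of arrays limits the precision.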

Additional observations from a re-analysis of the deposited data

Results flagged for a closer look

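Within the 5 livers of a diet, 1 liver stood apart from the other 4 for 13 of 196 gene and diet combinations examined (gap to the nearest liver over 0.71 of the range), where chance gives about 1 in 20. They fell on 7 T20 and 6 S values and no array held more than 2. All values here are log2 intensities. Among T20 livers, *Asns* was low in liver 1 (7.17, the others 7.84 to 8.06), *Abcg8* low in liver 2 (8.23, the others 9.69 to 10.27), *Taldo1* low in liver 2 (12.04, the others 12.26 to 12.33), *Mcm7* high in liver 3 (9.76), *Onecut1* high in liver 4 (11.16, the others 8.69 to 9.07), *Cpt1a* high in liver 5 (14.16, the others 12.77 to 13.11) and *Vnn1* low in liver 5 (9.58). Among S livers, *Cdkn2c* was low in liver 1 (10.05), *Slc6a13* low in liver 2 (11.19), *Sts* high in liver 3 (10.09, the others 8.43 to 8.86), *Aldh1a1* high in liver 3 (13.23), *Oat* high in liver 4 (12.20, the others 11.89 to 11.96) and *Mgarp* low in liver 5 (7.15). The cause of these values was not tested. Without the liver in question the calls of *Aldh1a1* (adjusted p = 0.0776), *Mgarp* (0.0674) and *Slc6a13* (0.0522) were lost, those of *Oat*, *Asns*, *Vnn1*, *Taldo1*, *Abcg8*, *Sts*, *Cdkn2c* and *Mcm7* were kept, and *Cpt1a* and *Onecut1* did not pass with or without it.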

How the results depend on the processing

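The 568 passing probe sets (329 higher, 239 lower) became 105 (59 higher, 46 lower) when only the T20 and S arrays were fitted, 303 (185 higher, 118 lower) without T20 arrays 1 and 2, and 151 (90 higher, 61 lower) at a threshold of 0.01. Leaving out 1 array gave 278 (168 higher, 110 lower, without T20 replicate 1) to 654 (377 higher, 277 lower, without T20 replicate 4). The count was also over 1.5 times smaller without T20 replicate 3 (326), S replicate 1 (367), S replicate 2 (318) or S replicate 4 (335). Quantile normalization gave 281 higher and 349 lower. With the replicate block 745 passed, every named call was kept, and only the arrays numbered 1 correlated best with their own number. Over 98 named genes and the alternatives, 2059 of 2440 gene results were the same, 364 lost significance, 3 gained it and 14 changed sign. Sign changes were of genes that did not pass. Without T20 arrays 1 and 2 these were *Pnpla3* (-0.0045), *Srebf1* (-0.031) and *Fmo1* (0.065), and with equal medians and spreads *Cth* (0.017) and *Fmo1* (0.083). With 1 array left out, *Fasn* ranged over -0.52 to 0.0055, *Srebf1* over -0.021 to 0.25, *Cpt1a* over -0.060 to 0.32 and *Fmo1* over -0.089 to 0.095. The cause was not tested.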

Other observations

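*Tfrc* divided the livers by replicate number on more diets than T20, a pattern noticed after the values were seen. Livers 1 to 3 held 11760 to 16921 on T20 and livers 4 and 5 held 4583 and 2534. On the diet with 100 g/kg of protein from each of casein and tofu (T10) the corresponding values were 10329.5 to 16264 and 3579 and 3809, and on C they were 6574 to 10008 and 2609 and 2843. On S all 5 livers lay between 1387 and 3045, and on SI liver 1 held 10097 and the others 1063 to 2680. The labels do not say what the numbers stand for, and the pattern was not tested.

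T10 livers held *Hamp* at 189.7 to 341, beside 170.5 to 255 on T20. *Oat* was at 12930.2 to 19913 on T10, beside 13089 to 27845 on T20, and *Mat2a* at 841 to 1303, beside 1097 to 2144 on T20.

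For 5 passing named genes the other probe sets of the gene did not pass and had clearly smaller differences or the other sign. The brightest probe set of *Ghr* was at 0.43 and its other one at 0.12, *Acaa2* at -0.36 and 0.11, *Cdkn2c* at -0.44 and -0.05, and *Hyou1* at -0.49 and -0.24. *Agpat3* is described above. For *Pklr*, *Sc5d* and *Ccnd1* at least 1 other probe set did not pass either (adjusted p = 0.109 for *Pklr*, 0.174 and 0.0665 for *Sc5d* and 0.105 for *Ccnd1*), with differences of the same sign. *Smim14* (0.98, adjusted p = 7.03e-06) and *Hnrnpa1* (-0.82, adjusted p = 1.83e-05), an RNA-binding protein of splicing, had the second and the third smallest p of all genes. They are named after their values were seen.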
